A study of Homo sapiens with 9 samples.

Results

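The genes described here carry out mitosis: the kinases and cyclins that start it, the spindle checkpoint, the kinetochore, the spindle, cytokinesis, chromosome condensation and the transcription factors of the programme. They were chosen by name and by known role, with the kinesins left out except CENPE, and number 56 of the 61552 genes listed in the files. All 56 were listed once, and each passed the filter on low values. RNA-seq was performed on MDA-MB-231 cells, an established human line of triple-negative breast cancer (TNBC), a class that lacks the estrogen and progesterone receptors and amplified ERBB2. The control group received 0 mM 2-deoxy-D-glucose (2-DG; phosphate-buffered saline in the study's methods), and the other groups received 10 mM or 20 mM 2-DG, each for 24 h and with 3 libraries per group. All groups carried the wild-type genotype label and grew in DMEM with fetal calf serum and antibiotics. 2-DG resembles glucose, enters cells by the same carriers and slows glycolysis, and the study used it to change lactate levels.

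The deposited unit was FPKM, the reads on a gene divided by the length of its exons and by the reads counted in the library. The totals counted on genes, recovered from the step size of the values, lay between 30974968 and 40843638 reads per library, with a median of 35138071. The study's methods state that RNA came from 3 sample replicates per condition. No source used here says that these were separate cultures, so p-values measure only the spread between these samples, which may be technical. The cell type label was checked on markers. VIM, CD44, AXL, MSN, CAV1, KRT18, LDHA and EGFR, all known in this line, had means above 1 FPKM, while SPARC, the remaining marker of that list, did not exceed 0.215 FPKM in any library. ESR1 and PGR did not exceed 0.00829 and 0.0204 FPKM, and ERBB2 had 8.81 FPKM in the control. Of the 5 leukocyte markers, the defining gene PTPRC stayed at or below 0.0327 FPKM and CD3E at or below 0.0109. The summed level of these leukocyte markers was 4.0, 2.92 and 2.49 FPKM in the control, 1.73, 2.82 and 1.98 at 10 mM and 1.86, 1.47 and 1.16 at 20 mM, nearly all of it CD14. For the 6 fibroblast and endothelial markers the sums were 3.03, 3.09 and 3.15 FPKM in the control, 2.08, 2.5 and 2.17 at 10 mM and 2.24, 2.21 and 1.87 at 20 mM, with PECAM1 the most abundant, COL1A1 next and DCN at or below 0.0105 FPKM. Of the 6 luminal epithelial markers, KRT19 made up most of the summed 306, 259 and 265 FPKM in the control, 176, 228 and 193 at 10 mM and 182, 191 and 182 at 20 mM, while CDH1 stayed at or below 0.417 FPKM. At 20 mM, the only leukocyte marker tested (1 of 1), 1 of 3 fibroblast and endothelial markers tested and 3 of 5 luminal markers tested were lower by adjusted p in limma, with 1 luminal marker higher, against 21.6% lower and 15.4% higher of all genes tested. The 9 markers of the line summed to 1361, 1340 and 1359 FPKM in the control. The sums were 1201, 1194 and 1233 at 10 mM and 1168, 1175 and 1183 at 20 mM. By adjusted p at 20 mM, 3 of these 9 were lower and 1 higher, and ERBB2 was lower (log2 fold change -0.54). The part of all these markers in the results was not tested.

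Mitosis separates the copied chromosomes into daughter cells. Cyclin B bound to CDK1 starts it, Aurora and Polo kinases build the spindle, and the kinetochore, assembled on CENP-A nucleosomes, holds each chromosome to spindle microtubules. The spindle checkpoint keeps the anaphase-promoting complex (APC/C) off until every kinetochore is attached, after which securin and cyclin B are destroyed, sister chromatids part and the cell divides by cytokinesis. Most of these genes are transcribed in a wave in G2 and mitosis that depends on FOXM1, B-MYB and the MuvB complex. MuvB binds the cell cycle genes homology region (CHR) of their promoters, often beside CCAAT boxes bound by NF-Y. In resting cells the same MuvB core sits in the DREAM complex, which holds the genes down. Dividing tumour lines such as MDA-MB-231 keep the wave at a high level.

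The comparison of treated with control cells asks how the transcriptome responds to 2-DG. Transcripts of all but 1 of the 56 genes were lower in 20 mM 2-DG by adjusted p, against 21.6% of all genes tested. The FPKM of the 56 genes summed to 1708, 1666 and 1770 in the control libraries, 679, 691 and 763 at 10 mM and 540.4, 574 and 555 at 20 mM. The groups did not overlap, and each 20 mM library lay below each 10 mM library. The mean sum was 41.5% of the control at 10 mM and 32.4% at 20 mM. These are bulk samples, so fewer cells in G2 and mitosis and less of each RNA per cell cannot be told apart.

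**Figure D1:**
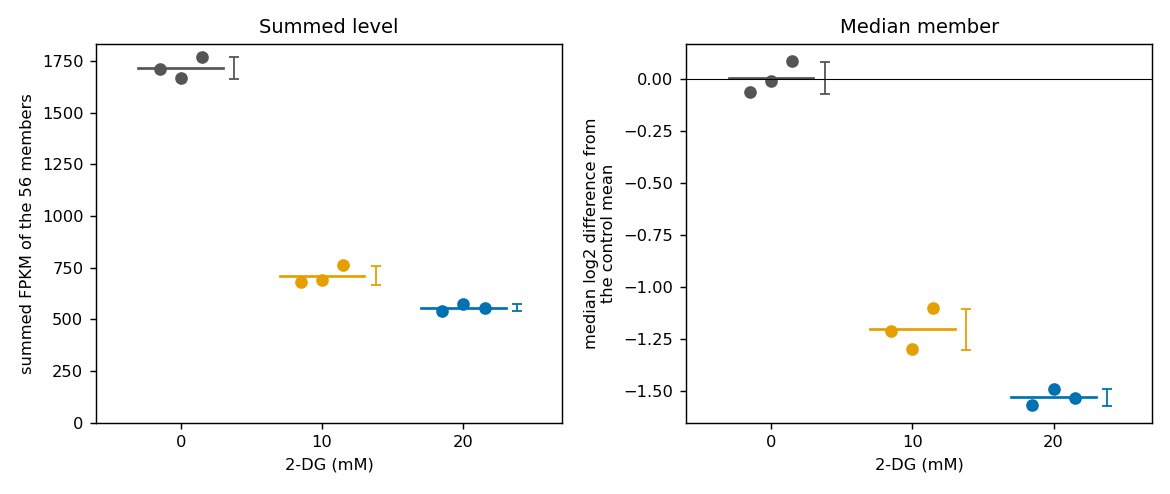
Left, the summed FPKM of the 56 genes in each library against the 2-DG dose in mM; right, the median over the genes of each library's log2(FPKM + 1) minus the control mean. Points are libraries, horizontal lines group means and bars SD (n = 3). The 20 mM libraries sit between 540.4 and 574 and the control libraries between 1666 and 1770.

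Differences were tested with limma on log2(FPKM + 1) across 16572 genes, with all 9 libraries in the fit. A gene was called lower at an unadjusted p under 0.05 and a log2 fold change under -1. The cut-offs are from the study, which used DESeq2 and does not say whether p was adjusted, so counts may differ from its own. By another rule, a gene was lower at a Benjamini-Hochberg adjusted p under 0.05 whatever its fold change. At 10 mM 2-DG, 39 of the 56 genes were called lower, against 1.16% of all genes tested. By adjusted p, 55 were lower and 0 higher, against 17.5% and 12.1% of all genes. At 20 mM, 44 genes were called lower, against 1.96% of all genes. The share of all genes depended on the scale: it was 5.23% with a pseudocount of 0.1 and 7.2% with limma-voom, where 52 and 52 of the genes were called, and at 10 mM 3.42% and 5.17%, with 45 and 47 called. By adjusted p at 20 mM in limma on log2(FPKM + 1), 55 were lower and 0 higher, against 21.6% and 15.4%. The 3 libraries of 10 mM lay below all 3 controls for 54 genes, against 22.7% of all genes, and those of 20 mM for 55, against 29.9%. The median log2 fold change of the 56 genes was -1.15 at 10 mM and -1.56 at 20 mM, beside -0.01 and -0.02 over all genes tested. Both doses were set against the same control libraries. The genes were also chosen with earlier results of these data known, so these counts describe them and carry no p of their own.

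At 20 mM, all 55 genes that fell had an adjusted p under 0.05 also after median-ratio or upper-quartile scaling, although the balance of lower and higher genes in the whole transcriptome moved with that choice. Of the genes past the adjusted threshold at 20 mM, 58.5% were lower, and 45.8% after upper-quartile scaling. For 10 mM these shares were 59.1% and 48%. By the rule of unadjusted p and fold the shares at 20 mM were 66.9% and 56.8%. At 10 mM several calls by fold lay close to the threshold. Those of CENPF and CENPI were lost after median-ratio scaling, and those of ESPL1 and TTK as well after upper-quartile scaling. Without control replicate 3 the calls of CENPE, CENPF, CENPI, CENPU and TTK were lost, without control replicate 2 that of CENPF, without 10 mM replicate 1 those of CENPU, PTTG1 and TTK, and without 10 mM replicate 2 those of CENPE and CENPF. None of these genes lost its adjusted call in these settings. At 20 mM no call by fold was lost in any setting tried, and CENPH, CENPK, CENPN, HMMR, KNL1, PRC1, SGO2 and SMC2 were called as well with a pseudocount of 0.1 and with limma-voom. Adding 1 to each FPKM understates the change of low genes, so the percentage of the control mean FPKM left is given for the genes named from the 56. In the control the 56 genes ranged from 0.136 to 188 FPKM (median 18.2). For the 53 genes with a mean of at least 1 FPKM over the 9 libraries, the level at 20 mM was a median of 29.8% of the control, from 18.8% to 79%, and for 50 of them it was under 50%.

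**Figure D2:**
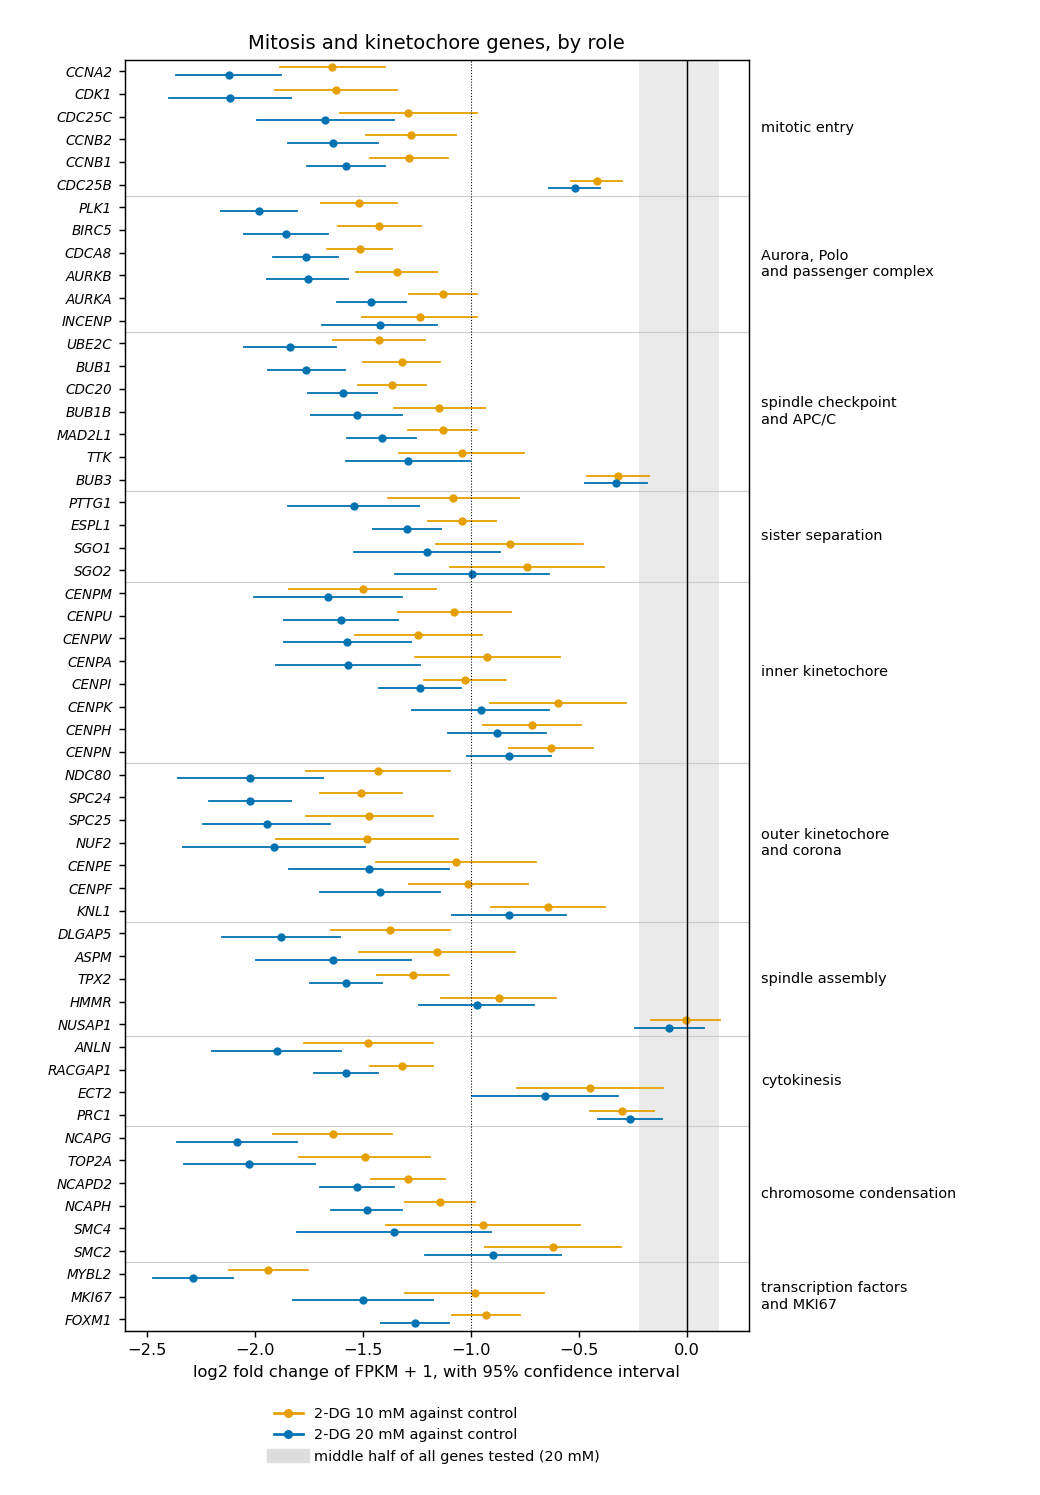
Log2 fold change of FPKM + 1 against control with its 95% confidence interval for each gene at 10 mM (orange) and 20 mM 2-DG (blue), in role order; the grey band is the interquartile range of all genes tested at 20 mM and the dotted line marks -1. All intervals at 20 mM lie below 0 except that of NUSAP1, and BUB3, CDC25B, PRC1 and ECT2 lie nearest to 0 among the rest.

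Because the genes moved together, RefSeq promoters (GRCh38.p14, from 250 bases before to 50 after the transcription start) were searched on both strands for 3 kinds of motif: the CHR as TTTGAA or TTCGAA, the CCAAT box as CCAAT, and E2F-like sites as TTTGGCGC, TTTCCCGC, TTTCGCGC or TTTGCCGC. None of the motifs searched contains another. A promoter was found for 45 of the genes and for 27303 genes in all, and the first window listed was used where a gene had several. AURKA, BIRC5, BUB3, CENPH, CENPM, FOXM1, KNL1, RACGAP1, TPX2, TTK and UBE2C had no entry. A CHR was present in 31 of the 45 promoters (68.9%), against 16.6% of all promoters. CCAAT boxes were in 33 (73.3%), against 35.7%, and 21 held at least 2 (46.7%, against 11.3%). Both kinds stood together in 24 promoters (53.3%, against 6.58%). E2F-like sites were in 4 (8.89%, against 3.33%). A match is a description of the letters in this window, not a bound site. Nor does the lack of a match mean that a gene has no such site. Other forms of the motifs and other windows of the same gene were not searched.

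The windows of 5 genes are shown, from 5 of the 10 role groups, 5′ to 3′ on the gene's strand, with the motifs in capitals. Each is the most abundant member of its role group that has an entry. They are the cyclin CCNB1 (chr5:69166900-69167199, plus strand), the APC/C activator CDC20 (chr1:43358731-43359030, plus strand), the corona protein CENPF (chr1:214602945-214603244, plus strand), the topoisomerase TOP2A (chr17:40417847-40418146, minus strand) and the transcription factor MYBL2 (chr20:43666864-43667163, plus strand).
CCNB1: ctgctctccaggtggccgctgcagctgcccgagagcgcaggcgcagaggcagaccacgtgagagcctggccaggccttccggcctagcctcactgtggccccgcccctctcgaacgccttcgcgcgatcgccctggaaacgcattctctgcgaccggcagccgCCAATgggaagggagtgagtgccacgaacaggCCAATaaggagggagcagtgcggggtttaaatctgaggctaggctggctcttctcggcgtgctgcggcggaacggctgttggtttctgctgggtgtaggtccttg
CDC20: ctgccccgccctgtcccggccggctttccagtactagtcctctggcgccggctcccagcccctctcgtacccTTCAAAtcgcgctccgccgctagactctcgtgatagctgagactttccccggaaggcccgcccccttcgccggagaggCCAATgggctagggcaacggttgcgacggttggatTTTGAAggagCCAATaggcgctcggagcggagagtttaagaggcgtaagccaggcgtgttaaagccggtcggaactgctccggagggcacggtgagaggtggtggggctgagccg
CENPF: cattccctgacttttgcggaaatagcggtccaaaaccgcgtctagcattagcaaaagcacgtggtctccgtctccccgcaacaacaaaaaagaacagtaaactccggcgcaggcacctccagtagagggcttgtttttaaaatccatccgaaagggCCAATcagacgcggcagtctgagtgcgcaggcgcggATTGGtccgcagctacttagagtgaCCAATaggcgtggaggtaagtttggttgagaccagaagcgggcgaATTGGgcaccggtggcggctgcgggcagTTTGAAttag
TOP2A: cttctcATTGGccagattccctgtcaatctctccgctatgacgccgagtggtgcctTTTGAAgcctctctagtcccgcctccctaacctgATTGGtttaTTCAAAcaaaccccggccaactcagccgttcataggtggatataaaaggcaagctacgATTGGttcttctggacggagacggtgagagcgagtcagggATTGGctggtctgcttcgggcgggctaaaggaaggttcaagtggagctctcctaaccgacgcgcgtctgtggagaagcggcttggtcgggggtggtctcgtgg
MYBL2: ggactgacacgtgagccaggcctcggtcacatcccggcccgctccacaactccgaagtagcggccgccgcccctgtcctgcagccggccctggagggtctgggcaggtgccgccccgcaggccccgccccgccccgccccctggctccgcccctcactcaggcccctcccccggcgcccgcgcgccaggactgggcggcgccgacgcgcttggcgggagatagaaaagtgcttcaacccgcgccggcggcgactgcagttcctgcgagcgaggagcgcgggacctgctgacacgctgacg
CCNB1 held 2 CCAAT boxes, which began 87 and 55 bases before the start. In CDC20, 2 CCAAT boxes began 100 and 55 bases before the start, a CHR lay between them, 65 bases before it, and another CHR 178 bases before it on the opposite strand. CENPF held 4 CCAAT boxes on both strands and a CHR 40 bases after the start, and TOP2A 4 CCAAT boxes and 2 CHR elements. The MYBL2 window, of the member with the lowest fold change, held none of the letters searched. In the role groups not shown, the most abundant members with an entry were AURKB, PTTG1, CENPW, DLGAP5 and ANLN. AURKB and PTTG1 held CCAAT boxes without a CHR, ANLN held CHR elements without a CCAAT box, and CENPW and DLGAP5 held both.

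**Figure D3:**
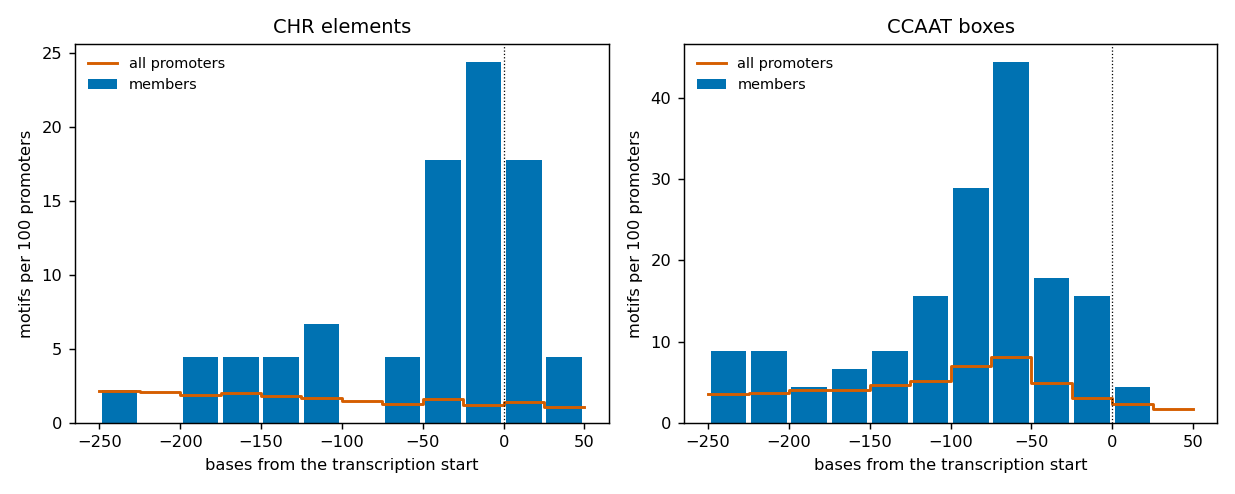
Motifs per 100 promoters in bins of 25 bases along the window, against the distance in bases from the transcription start, for CHR elements (left) and CCAAT boxes (right); bars are the 45 promoters of mitosis genes and the line all 27303 promoters. CHR elements of the mitosis genes are most frequent from 25 bases before the start up to it (24.4 per 100, against 1.22), and CCAAT boxes from 75 to 50 bases before it (44.4 per 100, against 8.05).

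The fold changes were also set beside the motifs. The median log2 fold change at 20 mM was -1.55 for the 24 genes with both kinds in the window searched. It was -1.59 for the 16 with either alone and -1.47 for the 5 with neither (CDC25B, CDC25C, CENPE, CENPI and MYBL2). No test was made of these medians, and genes without a match may hold sites that this search misses.

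Of the 6 genes of mitotic entry, 5 were called lower at each dose, and all 6 fell by adjusted p. CCNB1 (cyclin B1; ENSG00000134057, chromosome 5, 69167010 to 69178245), the subunit that activates CDK1, had 122, 111 and 122 FPKM in the control libraries, 42.4, 52.7 and 48.7 at 10 mM and 40.2, 39.3 and 37.2 at 20 mM. Every treated library was far below the control, and the 20 mM libraries lay below those of 10 mM. The fall was to 40.6% of the control mean at 10 mM and 32.9% at 20 mM (log2 fold change -1.58, SE 0.08, adjusted p = 8.32e-07). CCNA2 (cyclin A2), which pairs with CDK2 in S phase and with CDK1 in G2, had 31.3, 32.7 and 36.2 FPKM in the control libraries, 9.87, 8.49 and 11.9 at 10 mM and 6.71, 6.53 and 7.45 at 20 mM. It fell to 20.7% of the control at 20 mM, close to its partner CDK1, the kinase itself, which fell to 19.4%. CDC25B, a phosphatase that removes the inhibitory phosphates from CDK1, changed less, with 78.9, 75.6 and 77.2 FPKM in the control libraries, 56, 60.6 and 56.3 at 10 mM and 53.4, 55.1 and 52.3 at 20 mM. Its groups did not overlap either, yet 69.4% of the control level was still present at 20 mM (log2 fold change -0.52, adjusted p = 5.64e-05). The related CDC25C, known for its part at the G2/M step, fell to 21.4%, and CCNB2 to 29.8%.

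All 6 genes of the Aurora, Polo and passenger group were called lower at both doses. AURKA (ENSG00000087586, chromosome 20, 56369389 to 56392337), the Aurora kinase of centrosomes and spindle poles, had 57.1, 59.3 and 62.7 FPKM in the control libraries, 25, 25.9 and 29.4 at 10 mM and 19.8, 21.8 and 21.6 at 20 mM. The groups stood apart in the order of the dose, and 20 mM left 35.3% of the control level (log2 fold change -1.46, SE 0.07, adjusted p = 6.81e-07). PLK1, the Polo kinase that acts from mitotic entry to cytokinesis, had 30.7, 32.7 and 29.1 FPKM in the control libraries, 9.79, 10.2 and 10.3 at 10 mM and 7.79, 7.17 and 6.25 at 20 mM. The 20 mM libraries were again the lowest, at 23% of the control (log2 fold change -1.98). INCENP, the scaffold of the passenger complex, had 21.4, 24 and 22 FPKM in the control libraries, 11, 7.11 and 9.15 at 10 mM and 7.7, 7.77 and 7.77 at 20 mM. Its 10 mM libraries spread around those of 20 mM, so only the step from the control is larger than the spread (log2 fold change -1.24 and -1.42, with 34.5% of the control left at 20 mM). AURKB, the kinase of that complex, fell to 28.5% of the control at 20 mM, its partners BIRC5 (survivin) and CDCA8 (borealin) to 25.3% and 27.9%.

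Of the 7 genes of the spindle checkpoint and APC/C, 6 were called lower at each dose, and all 7 fell by adjusted p. UBE2C (ENSG00000175063, chromosome 20, 45812576 to 45816957), the ubiquitin-conjugating enzyme of the APC/C, was the most abundant of the 56 genes in the control, with 197, 175 and 192 FPKM in the control libraries, 59.5, 72.3 and 77.3 at 10 mM and 49.1, 54.9 and 51.7 at 20 mM. The groups did not overlap, and 27.6% of the control level was found at 20 mM (log2 fold change -1.84, SE 0.10, adjusted p = 9.02e-07). CDC20, which activates the APC/C and is the target of the checkpoint, followed at 32.7%. The checkpoint kinases BUB1 and TTK fell to 26.5% and 30.3%, BUB1B (BubR1) to 28.7% and MAD2L1, which binds CDC20, to 31.9%. BUB3, the partner that brings BUB1 and BubR1 to kinetochores, had 29.9, 32.7 and 31.8 FPKM in the control libraries, 27.2, 23.5 and 24.6 at 10 mM and 24.2, 25 and 25.5 at 20 mM. Its treated libraries lay just under the control and those of both doses overlapped, with a log2 fold change of -0.33 (95% confidence interval -0.47 to -0.18, adjusted p = 0.00326). BUB3 kept 79% of its control level, the largest share among the 53 genes with at least 1 FPKM.

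**Figure D4:**
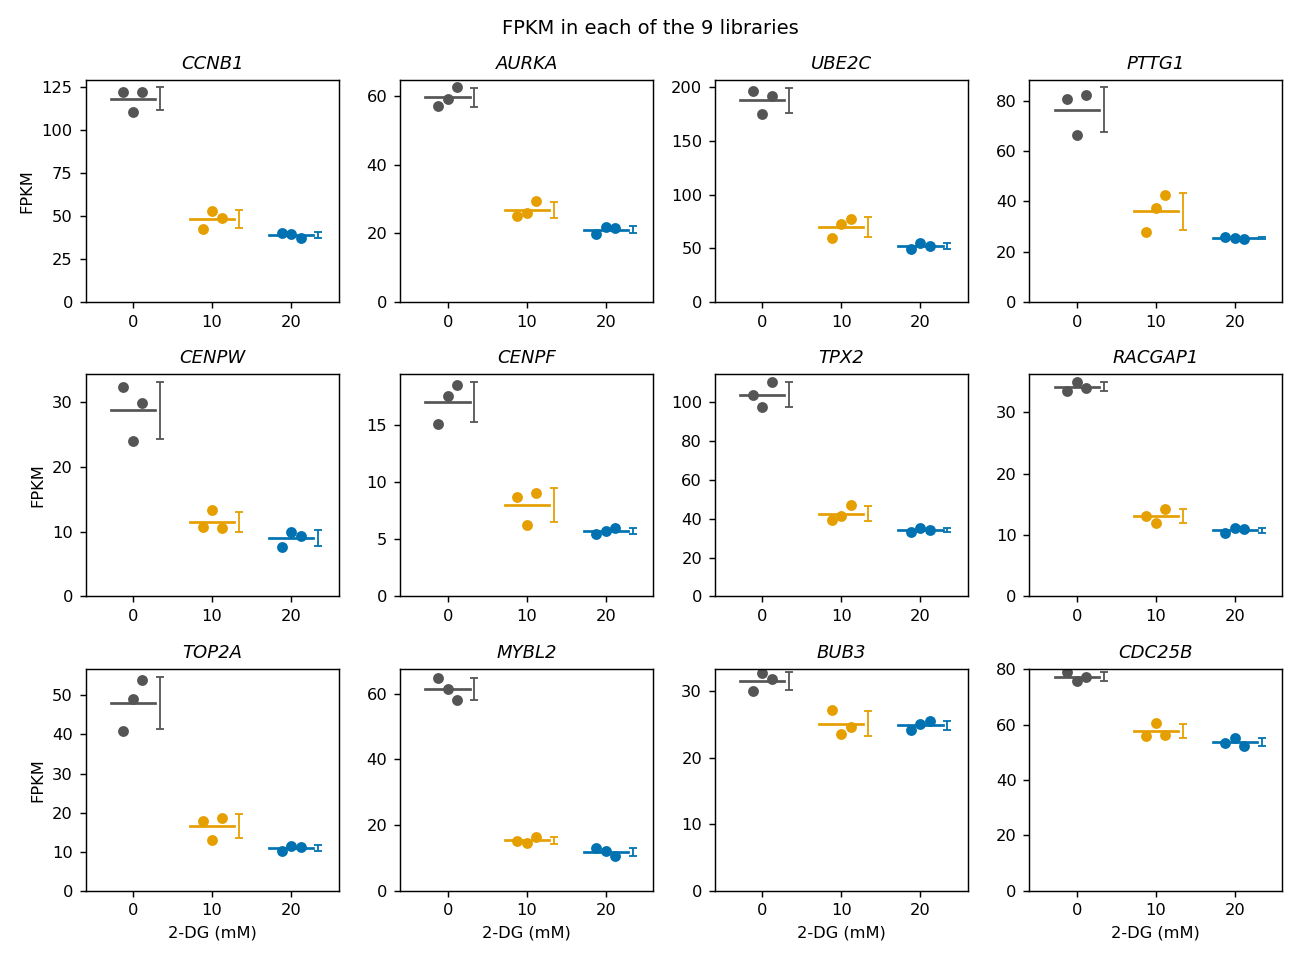
FPKM in each library (points) against the 2-DG dose in mM, with the group mean (horizontal line) and SD (bar, n = 3), for the most abundant gene of each role group and for BUB3 and CDC25B; each axis starts at 0. In each panel the treated libraries lie below the control, most narrowly for BUB3 and CDC25B.

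The 4 genes of sister separation fell by adjusted p at both doses, and 2 at 10 mM and 3 at 20 mM were called lower. PTTG1 (securin; ENSG00000164611, chromosome 5, 160421822 to 160428744), which holds separase inactive until anaphase, had 80.8, 66.3 and 82.4 FPKM in the control libraries, 28, 37.5 and 42.5 at 10 mM and 25.7, 25.6 and 25.1 at 20 mM. All treated libraries were below the control, and the 20 mM libraries were close to each other at 33.3% of the control (log2 fold change -1.54, SE 0.14, adjusted p = 2.31e-05). ESPL1, the separase that cleaves cohesin, fell to 35.3%. SGO2, a shugoshin that protects centromeric cohesin, was low, with 3.23, 4.16 and 5.19 FPKM in the control libraries, 2.01, 1.63 and 2.64 at 10 mM and 1.84, 1.41 and 1.5 at 20 mM. Control values of SGO2 spread widely but stayed above both doses, with 37.8% left at 20 mM (log2 fold change -0.99, adjusted p = 0.00101), just short of the fold threshold. The related SGO1 fell to 24.5%.

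In the inner kinetochore, all 8 genes fell by adjusted p at both doses, and 4 at 10 mM and 5 at 20 mM were called lower. CENPW (ENSG00000203760, chromosome 6, 126340174 to 126348875), a histone-fold partner of CENP-T, had 32.4, 23.9 and 29.8 FPKM in the control libraries, 10.8, 13.3 and 10.5 at 10 mM and 7.6, 9.98 and 9.35 at 20 mM. Spread within its groups was wide but the groups did not overlap, with 31.3% left at 20 mM (log2 fold change -1.57, SE 0.13, adjusted p = 1.76e-05). CENPM, a subunit of the complex with CENP-H, CENP-I and CENP-K, had 16.3, 14.2 and 12.6 FPKM in the control libraries, 3.48, 5.27 and 4.57 at 10 mM and 3.06, 4.58 and 3.96 at 20 mM. Its doses overlapped each other, both well under the control (log2 fold change -1.50 and -1.66, with 27% of the control left at 20 mM). CENPN, which reads the CENP-A nucleosome, had 4.4, 4.91 and 4.5 FPKM in the control libraries, 2.41, 2.61 and 2.84 at 10 mM and 1.98, 2.25 and 2.26 at 20 mM. It kept 47% of the control level at 20 mM and was not called by fold (log2 fold change -0.83, adjusted p = 7.23e-05). CENPH and CENPK also stayed above the fold threshold, at 43.1% and 40.9% of the control. CENPA, the histone H3 variant that marks the centromere, had 9.72, 8.85 and 9.71 FPKM in the control libraries, 4.25, 3.72 and 5.69 at 10 mM and 2.4, 3.24 and 2.0 at 20 mM. Each step of dose gave a separate group for CENPA, and its log2 fold change went from -0.92 to -1.57, with 27% of the control left at 20 mM, although the step between the doses did not pass the adjusted test (log2 fold change of 20 mM against 10 mM -0.65, adjusted p = 0.31).

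Among the 7 genes of the outer kinetochore and its fibrous corona, 6 were called lower at each dose and all 7 fell by adjusted p, with the lowest median of the role groups at 20 mM (-1.91). CENPF (ENSG00000117724, chromosome 1, 214603195 to 214664588), a large corona protein, had 15.1, 17.5 and 18.5 FPKM in the control libraries, 8.69, 6.26 and 9.05 at 10 mM and 5.43, 5.75 and 5.97 at 20 mM. The 10 mM libraries spread but stayed between the other groups, and 33.6% of the control was left at 20 mM (log2 fold change -1.01 and -1.42, SE 0.12, adjusted p = 2.14e-05 at 20 mM). NDC80, the subunit that grips microtubules, had 11.4, 12.1 and 14.6 FPKM in the control libraries, 3.3, 4.0 and 5.02 at 10 mM and 1.85, 2.8 and 2.49 at 20 mM. The groups followed the dose without overlap, down to 18.8% of the control. Its complex partners moved alike, with 19.3% left for NUF2, 19.5% for SPC24 and 19.9% for SPC25. KNL1, the scaffold on which BUB proteins gather, had 1.84, 2.41 and 2.57 FPKM in the control libraries, 1.3, 0.824 and 1.18 at 10 mM and 0.728, 0.939 and 0.868 at 20 mM. The highest 10 mM library was still under the control, and 37.1% of the control was left at 20 mM, with a fold change within the threshold (log2 fold change -0.82, adjusted p = 0.000507). CENPE, a kinesin motor of the corona, fell to 22.3%.

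Spindle assembly held the exception. Of its 5 genes, 3 were called lower at each dose and 4 fell by adjusted p. TPX2 (ENSG00000088325, chromosome 20, 31739271 to 31801805), which activates Aurora A on the spindle, had 103, 97.4 and 110.5 FPKM in the control libraries, 39.5, 41.2 and 47 at 10 mM and 33, 35.3 and 34 at 20 mM. The groups were well separated, with 32.9% of the control left at 20 mM (log2 fold change -1.58, SE 0.07, adjusted p = 6.21e-07). DLGAP5, which stabilises kinetochore microtubules, had 26.7, 27.1 and 31.5 FPKM in the control libraries, 9.7, 9.11 and 12.5 at 10 mM and 6.0, 7.46 and 7.59 at 20 mM. It followed the dose down to 24.7%, and ASPM, a protein of spindle poles, to 20.1%. HMMR, a spindle protein that binds TPX2, was listed at only 1.45 FPKM in the control and fell to 16.1% of it, which the added 1 turned into a log2 fold change of -0.97. NUSAP1, which bundles spindle microtubules, was nearly absent from the files, with 0.0234, 0.272 and 0.113 FPKM in the control libraries, 0.189, 0.0814 and 0.113 at 10 mM and 0.0984, 0.0697 and 0.0419 at 20 mM. The values correspond to 3 to 36 reads at the fewest, its groups overlapped, and it was not called by either rule (51.4% of the control mean at 20 mM, log2 fold change -0.08, 95% confidence interval -0.24 to 0.08, adjusted p = 0.413). Without control replicate 2 its sign turned.

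The level of NUSAP1 is also uncertain because of shared exons. In GENCODE release 29, 1787 of its 2875 exon bases also belong to exons of AC087721.2 on the same strand, a gene that the files list at 0 in each library. How reads on shared bases were counted is not given in the sources used here, nor is the annotation. The length that makes the values whole reads equals the GENCODE 29 exon length for 12 of the 56 genes, and is 3608 bases for NUSAP1, so the overlaps in the annotation behind the values may differ. PRC1 stands in the same position. It shares 3181 of 5525 exon bases in GENCODE 29 with AC068831.7 on the same strand, whose mean was 0.70 FPKM in control cells, 0.197 with 10 mM and 0.196 with 20 mM. BUB1B and CENPA share 457 and 138 bases in this way, with BUB1B-PAK6, listed at 0, and with SLC35F6, whose mean was 7.72 FPKM in the control and 10.4 at 20 mM. Counting of the strand is not stated either, and in all 21 genes share exon bases with another gene on either strand, the longest opposite-strand stretches being 2168 bases in SMC4 and 1631 in NCAPG. The 35 genes that share no exon base all fell by adjusted p at 20 mM, 28 of them were called lower there, and their median log2 fold change was -1.57. Near-identical copies held few reads. Of 29 copies listed, 15 were at 0 in each library, and the highest, UBE2CP2, had 0.442, 0.482 and 0 FPKM in the control libraries, 0, 0.192 and 0.57 at 10 mM and 1.08, 0.591 and 0.652 at 20 mM. Its 10 mM libraries overlapped the control, and its 20 mM libraries were above both. MAD2L1P1 followed with 0.442 FPKM in 1 control library, and the other 12 stayed at or below 0.166 FPKM: AURKAP1, BUB3P1, CCNB2P1, CDC20P1, CENPNP1, CENPNP2, MKI67P1, NCAPD2P1, NCAPGP1, NCAPGP2, PTTG3P and UBE2CP1.

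In cytokinesis, 2 of 4 genes were called lower at each dose and all 4 were lower by adjusted p. RACGAP1 (ENSG00000161800, chromosome 12, 49976923 to 50033136), the GTPase-activating subunit of centralspindlin, had 33.5, 35 and 34 FPKM in the control libraries, 13.1, 12 and 14.2 at 10 mM and 10.3, 11.1 and 10.9 at 20 mM. The groups were narrow and apart, with 31.6% left at 20 mM (log2 fold change -1.58, SE 0.07, adjusted p = 3.42e-07). ANLN (anillin), the scaffold of the contractile ring, had 30.8, 37.8 and 39 FPKM in the control libraries, 14.1, 9.56 and 13.3 at 10 mM and 8.92, 8.45 and 9.14 at 20 mM. It fell to 24.6% of the control. ECT2, the exchange factor that switches on RhoA at the division plane, kept more, 60.8% at 20 mM, and at 10 mM its libraries overlapped the control (log2 fold change -0.45, adjusted p = 0.0481). That call at 10 mM was lost after upper-quartile scaling, without the filter and with only the groups compared in the fit. It was also lost without control replicate 2 or 3, without 10 mM replicate 2 or 3, and without any single library of 20 mM. PRC1, which crosslinks the midzone microtubules, had 0.255, 0.479 and 0.274 FPKM in the control libraries, 0.119, 0.0798 and 0.0527 at 10 mM and 0.129, 0.159 and 0.0493 at 20 mM. These values stand for 9 to 97 reads at the fewest. The treated libraries lay below the control, with 33.4% left at 20 mM (adjusted p = 0.0118). Its log2 fold change depended on the scale, at -0.26 with the added 1, -1.04 with a pseudocount of 0.1 and -1.63 with limma-voom, and the uncertainty of the shared exons given above applies.

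In the chromosome condensation group 4 of 6 genes at 10 mM and 5 at 20 mM were called lower, and all 6 fell by adjusted p. TOP2A (ENSG00000131747, chromosome 17, 40388516 to 40417950), the topoisomerase that untangles sister chromatids, had 40.8, 49.1 and 54 FPKM in the control libraries, 17.9, 13 and 18.5 at 10 mM and 10.1, 11.6 and 11.3 at 20 mM. Despite the spread of its control libraries the groups did not overlap, and 22.9% of the control was left at 20 mM (log2 fold change -2.02, SE 0.14, adjusted p = 4.13e-06). NCAPG, a subunit of condensin I, had 17.1, 18.7 and 22 FPKM in the control libraries, 5.39, 4.69 and 6.48 at 10 mM and 3.26, 4.09 and 3.99 at 20 mM. That is 19.6% of the control at 20 mM, and the condensin I subunits NCAPH and NCAPD2 fell to 30.1% and 33.1%. SMC2, an ATPase core shared by both condensins, had 7.58, 8.81 and 10.5 FPKM in the control libraries, 6.17, 4.25 and 6.07 at 10 mM and 3.89, 4.44 and 4.59 at 20 mM. Its doses overlapped each other but not the control, and it kept 48.1% of its level (log2 fold change -0.90, adjusted p = 0.000871). SMC4, its partner in the core, fell to 30.8%.

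The last group holds FOXM1 and MYBL2, transcription factors of the programme, and MKI67, the Ki-67 protein that coats mitotic chromosomes and marks dividing cells. All 3 fell by adjusted p at both doses, while 1 at 10 mM and 3 at 20 mM were called lower. MYBL2 (B-MYB; ENSG00000101057, chromosome 20, 43667019 to 43716496), which joins MuvB to activate late cell cycle genes, had 65, 61.4 and 58.2 FPKM in the control libraries, 15.2, 14.5 and 16.4 at 10 mM and 13.1, 12 and 10.5 at 20 mM. It had the lowest fold change of the 56 genes at both doses (-1.94 and -2.29, SE 0.08 and adjusted p = 1.72e-07 at 20 mM), with 24.9% of the control left at 10 mM and 19.3% at 20 mM. FOXM1, the forkhead factor that succeeds it, had 41, 40.2 and 35.9 FPKM in the control libraries, 20.6, 18.4 and 21.1 at 10 mM and 15.6, 15.9 and 15.6 at 20 mM. The groups of FOXM1 were apart as well, with 40.2% left at 20 mM (log2 fold change -1.26). MKI67 fell to 49.8% at 10 mM (log2 fold change -0.98, just short of the fold threshold) and to 33.6% at 20 mM.

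The comparison of 20 mM with 10 mM asks whether the larger dose lowered these genes further. None passed either rule: 0 were called lower (0% of all genes), 0 were lower by adjusted p (0%) and 0 higher (0%), with limma on log2(FPKM + 1). With limma-voom on the recovered reads 0 of the 56 passed either rule too, while 0.525% of all genes were called lower and 0.525% higher. At an unadjusted p under 0.05, 42 of the 56 genes were lower at 20 mM by limma on log2(FPKM + 1), against 4.13% of all genes tested, and 42 by limma-voom, against 661 of 16572 genes. All 3 libraries of 20 mM lay below all 3 of 10 mM for 43 genes, against 7.14% of all genes. The fold change was negative for 55 of 56, with PRC1 the exception, against 9086 of 16572 genes, and its median was -0.35, beside -0.01 over all genes. The largest differences were those of CENPA (-0.65, 95% confidence interval -0.98 to -0.31), NDC80 (-0.59, -0.93 to -0.26) and TOP2A (-0.53, -0.84 to -0.23), with adjusted p of 0.31, 0.349 and 0.35. The libraries of both doses do not overlap for these 3 genes. With a fold threshold of 1.5 in place of 2, CENPA and NDC80 were called lower, against 0.133% of all genes lower and 0.0664% higher. Without 10 mM replicate 3, 35 of the 56 genes were lower at an unadjusted p under 0.05 in limma, against 484 of 16572. Without 20 mM replicate 1, 2 or 3 the number was 36, 38 or 37, against 476, 570 or 536. Each other library left out gave 40 to 42, against 642 to 1015. The lowest adjusted p of the 56 genes was 0.121, so no single gene passed the adjusted threshold. A further step is seen in the order of the libraries of most genes. These genes share the same libraries, so their number adds no replicates.

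Other genes of mitosis, 136 in 9 lists of related complexes, gave a mixed picture. Of the 135 that were tested (CENPR was not listed under that name), 87 fell and 7 rose at 20 mM by adjusted p (against 21.6% and 15.4% of all genes), 36 were called lower (against 1.96%), and the median log2 fold change was -0.48 (-0.40 at 10 mM, with 79 lower and 3 higher, against 17.5% and 12.1%). The lowest medians stood in the following lists, with no test between lists. All 5 genes of condensin II and the chromosome surface were lower (median -1.44), as were 20 of 24 of the spindle and centrosome (median -0.95), 9 of 12 of the MIS12, SKA and RZZ complexes (median -0.83), 14 of 18 mitotic kinases and phosphatases (median -0.79) and 11 of 14 other inner kinetochore genes (median -0.60). The remaining lists had medians nearer to that of all genes, of which 21.6% were lower and 15.4% higher by adjusted p. By this rule, 5 of 13 cohesin genes were lower and 1 higher (median 0.01). For subunits of the checkpoint and APC/C the counts were 9 lower and 2 higher of 21 (median -0.21), and for further cytokinesis genes 7 and 2 of 13 (median -0.36). The MuvB, DREAM and NF-Y subunits had 7 lower and 1 higher of 15 (median -0.22) and 0 called lower by fold.

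The lowest fold changes among these genes were those of PIMREG and CEP55. PIMREG, a regulator of the metaphase to anaphase step, had 15.7, 14.4 and 15.9 FPKM in the control libraries, 3.3, 3.83 and 2.93 at 10 mM and 2.31, 2.03 and 2.28 at 20 mM. CEP55, which recruits the abscission machinery to the midbody, had 31.4, 32.8 and 44.5 FPKM in the control libraries, 10.1, 10.3 and 13.6 at 10 mM and 6.51, 8.68 and 7.23 at 20 mM. Both were far below the control at each dose, with log2 fold changes of -2.35 and -2.13 at 20 mM (adjusted p = 2.32e-07 and 6.47e-06). ARHGEF2, a microtubule-bound exchange factor for RhoA, moved the other way, with 23.2, 22.7 and 22.4 FPKM in the control libraries, 43.7, 37.5 and 40.9 at 10 mM and 44.2, 46.2 and 47.4 at 20 mM. MIS12, which links the inner to the outer kinetochore, had 8.11, 9.31 and 9.6 FPKM in the control libraries, 13.7, 12.3 and 11.6 at 10 mM and 12.1, 14.7 and 12.3 at 20 mM. All treated libraries of both genes lay above the control, and both rose (log2 fold change 0.98 and 0.49, adjusted p = 3.19e-06 and 0.00305).

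**Figure D5:**
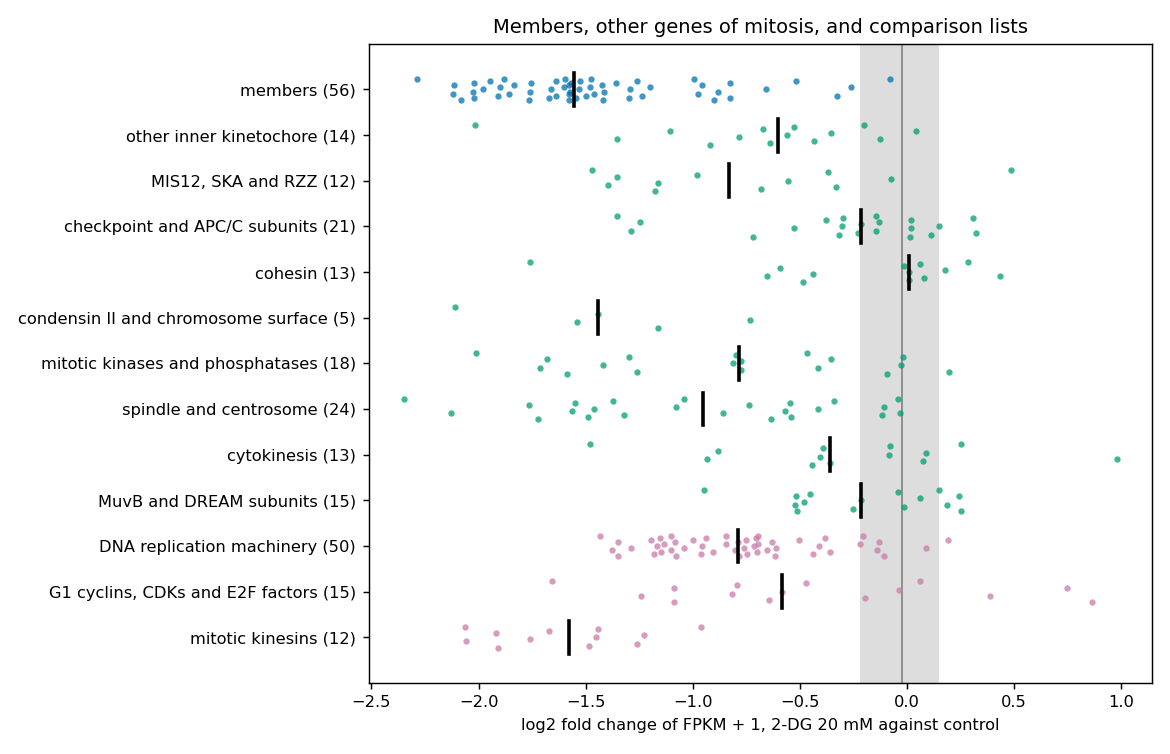
Log2 fold change of FPKM + 1 at 20 mM 2-DG against control for each tested gene (points) of the 56 genes (blue), the other lists of mitosis (green) and the comparison lists (pink), with the number tested in parentheses; black bars are medians, the grey band is the interquartile range of all genes tested and the grey line their median. The median is -1.56 for the 56 genes, -1.58 for the mitotic kinesins and -0.79 for the DNA replication genes.

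Other lists of the cell cycle were set beside the 56 genes without a test between them. Of all genes tested at 20 mM, 21.6% were lower and 15.4% higher by adjusted p, and 1.96% were called lower. The 12 mitotic kinesins, motors of the spindle with names in KIF that had been left out by rule, had a median of -1.14 at 10 mM and -1.58 at 20 mM, where 11 were called lower and all 12 fell by adjusted p. Of 50 genes of the DNA replication machinery, 43 fell by adjusted p at 20 mM and 0 rose, 16 were called lower, and the median was -0.79 (-0.68 at 10 mM). The 15 G1 cyclins, CDKs and E2F factors were divided, with 9 lower and 3 higher (median -0.58). The extremes of these lists were KIF20A and KIF18B at the low end and E2F7 and CCND2 at the high end. KIF20A, a kinesin of the central spindle, had 35, 40.1 and 36 FPKM in the control libraries, 11.6, 10.6 and 11.8 at 10 mM and 8.53, 7.97 and 7.75 at 20 mM. KIF18B, which shortens astral microtubules, had 27.6, 29.6 and 27.6 FPKM in the control libraries, 9.66, 7.71 and 10.3 at 10 mM and 5.54, 6.14 and 6.45 at 20 mM. For both motors the groups followed the dose without overlap (log2 fold change -2.06 and -2.06 at 20 mM). E2F7, a repressor among the E2F factors, had 11.2, 14.9 and 14.2 FPKM in the control libraries, 29.5, 16 and 22.4 at 10 mM and 25.2, 23.6 and 26.7 at 20 mM. CCND2 (cyclin D2) had 0.571, 0.465 and 0.511 FPKM in the control libraries, 1.52, 1.47 and 1.27 at 10 mM and 1.58, 1.52 and 1.54 at 20 mM. Treated libraries lay above the control in both, and both rose at 20 mM (log2 fold change 0.87 and 0.75, adjusted p = 0.00469 and 4.5e-05).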

How the data were processed

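RNA was extracted by the authors from 9 samples of MDA-MB-231 cells, and libraries were made with a SMARTER mRNA-Seq kit. The values are FPKM, deposited by the authors with 1 file per library. The submitters' processing notes name the genome build GRCh38 (hg38), and aligner, counter, annotation and strand are not given in the sources used here. Positions and exons are from GENCODE release 29.

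The library totals and gene lengths that make the FPKM values whole reads were searched, and 32806 of 32806 genes above 0 gave whole reads (within 2e-05 reads, plus 1.5e-09 of the reads for rounding). The GENCODE exon length was tried first and served for 48.6% of these genes. For the others the smallest length that gave whole reads was taken, so their reads are the fewest the values allow. A gene was tested if 3 or more libraries held 10 or more of its reads, scaled to the median total, and all libraries together held 15 or more. FPKM values are not counts, so limma 3.58.1 (R 4.3.3; lmFit, contrasts, eBayes with a trend) was used on log2(FPKM + 1) with Benjamini-Hochberg adjustment over the 16572 genes. The steps were tested on simulated data. Pairs of replicates had Pearson correlations of 0.9903 to 0.9947. Their difference per gene was 4.76 to 6.85 times the sampling variance at 20 mM and 14.7 to 22.5 times in the control. At 10 mM it was 27.7 to 58.7 times. None was therefore taken for a duplicate. The fit pooled the spread over all groups, so its SE does not show this difference between groups.

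The members and lists were chosen with earlier results of these data known. In each of 10 role groups, values in every library are given for the gene with the highest mean FPKM and for those with the lowest and highest log2 fold change at 20 mM. Also named by rule are genes not called at 20 mM, the 3 with the largest difference between doses, and the 2 lowest and 2 highest of the companion and of the comparison lists. Other genes are named for their role, after their values were seen. Pseudocount, filter, scaling, fit, block, fold threshold and libraries were varied. Values of some marker and overlapping genes are not reported here.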

Additional observations from a re-analysis of the deposited data

How the results depend on the processing

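The median log2 fold change of the mitosis genes at 10 mM, -1.15, became -1.3130 with a pseudocount of 0.1, -1.3423 with limma-voom fitted to reads recovered from FPKM and -1.3025 with limma-voom and median-ratio factors, a setting chosen after seeing the data. At 20 mM the median, -1.56, became -1.7187, -1.7347 and -1.6792 in the same settings and -1.4649 after upper-quartile scaling. These moves exceeded the SD between replicates of 0.0758, and the cause was not tested beyond the construction of the pseudocount. With a fold threshold of 1.5, 2 genes were called lower at 20 mM against 10 mM, in place of 0. Leaving out each library in turn gave 34 to 42 genes called lower at 10 mM and 44 to 48 at 20 mM, 54 to 55 and 55 to 55 lower by adjusted p, and 0 to 0 higher at each dose, with medians of -1.2257 to -1.1142 and -1.5655 to -1.5242. Between the doses it gave 0 to 0 called or past the adjusted p, in either direction, with medians of -0.3872 to -0.2835. Where this left 2 libraries in a group, the spread was pooled over all groups. Over all genes tested, the number called lower at 20 mM went from 324 to 866 with a pseudocount of 0.1 and to 1193 with limma-voom, and at 10 mM from 192 to 566 and 857. With the replicate number as a block, 39 mitosis genes were called lower and 54 were lower by adjusted p at 10 mM, with ECT2 lost, 44 and 55 at 20 mM, and 0 between the doses. After the group means were removed, libraries with the same number correlated at -0.406 to 0.293 and those with different numbers at -0.23 to 0.521. The highest value was that of control replicate 1 with 10 mM replicate 2. Whether any samples were handled in parallel is not given in the sources used here, and a batch was not tested. Of 646 pairs of a setting and 1 of the 36 genes named by rule, all at 20 mM against control, 645 kept direction and side of the adjusted p threshold, and 1 reversed, NUSAP1 without control replicate 2, at 0.0033 (range over single libraries left out, -0.1537 to 0.0033). NUSAP1 and PRC1 were not tested with at least 10 reads required in every library. The fewest reads that their values allow were 3 to 36 and 9 to 97, so depth may limit both.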

Other observations

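Within a group, the order of the libraries went with gene length (the length that makes the values whole reads), a pattern chosen after the values were seen and given without a test. Among the mitosis genes with a mean of at least 1 FPKM, those of 4309 bases or more were lowest of the control in control replicate 1 for 22 of 27 genes (81.5%), and lowest of 10 mM in replicate 2 for 21 of 27 (77.8%). For the 26 shorter genes the lowest control was replicate 2 for 18 (69.2%) and the lowest 10 mM library was replicate 1 for 18 (69.2%). Over all genes tested at this level, control replicate 1 was lowest for 55% of 6189 longer genes and control replicate 2 for 42.9% of 4634 shorter genes. At 10 mM, replicate 2 was lowest for 55.6% of the longer and replicate 1 for 53.9% of the shorter genes. At 20 mM, over all genes tested, replicate 1 was lowest for 45.5% of the longer and replicate 3 for 42.9% of the shorter genes. Among the mitosis genes at 20 mM, replicate 1 was most often lowest for both the longer (59.3%) and the shorter genes (46.2%), and replicate 3 was lowest for 14.8% of the longer and 42.3% of the shorter genes. The part of this order in the fold changes was not tested.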
